A study of Gallus gallus with 6 samples.

Results

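The transcripts of 8 genes that build, break down or regulate liver glycogen were examined in F1 chickens, and all 8 were found by NCBI Gene ID among the 20498 genes of the FPKM table. They comprised 4 PPP1R3 subunits, which carry protein phosphatase 1 to glycogen (PPP1R3B, PPP1R3C, PPP1R3D and PPP1R3G), and 4 enzymes (UGP2, GYS2, GBE1 and PYGL). The group was drawn up because PPP1R3G had the fifth lowest log2 fold change of all 10886 tested genes in fatty liver against control. Its own change is therefore given as a description, without a test. The other 7 genes were added by function, with earlier results of these birds known.

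Liver mRNA was sequenced with 1 library per bird, from 3 males of the paternal inheritance group that had fatty liver and from 3 control males that did not, all 36 weeks old. All 6 were F1 birds of the dwarf Jingxing-Huang (JXH) line raised on the basal diet. Parents of both sexes in the paternal group received a high-fat diet, and sires that had fatty liver were bred with hens that did not have it, whereas the control parents had received the basal diet. Liver phenotype and parental group changed together in these 6 birds and cannot be told apart, and whether birds of a group shared a sire is not given in the sources used here.

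Glycogen is the store of glucose in liver. PGM1 converts glucose 6-phosphate to glucose 1-phosphate, UGP2 turns that into UDP-glucose, the liver glycogen synthase GYS2 adds it to the growing chain, and the branching enzyme GBE1 makes the branch points, while the liver phosphorylase PYGL takes glucose units off again. Protein phosphatase 1 activates the synthase and inactivates the phosphorylase, and the PPP1R3 subunits bring it to the glycogen particle. In mice, hepatic Ppp1r3g is raised by fasting and lowered by feeding, and in rodents hepatic Ppp1r3b is maintained by insulin.

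FPKM are the fragments of a gene scaled to its exon length and to the depth of the library. They do not have the same total in every library. The summed FPKM was 633777.1 to 648888.4 in fatty liver and 599894.3 to 609688.5 in control. Comparisons of FPKM between birds, and counts of genes without overlap, include this shift. The libraries held between 9628492 and 10073155 mapped fragments in fatty liver and between 8860634 and 10403637 in control. Each member had at least 10 fragments in every library. The 10886 genes that averaged 1 FPKM or more were compared with limma on log2(FPKM + 1), with p-values adjusted over all of them and a threshold of 0.05. Fold changes on this scale come out too small where FPKM are low. Over all genes the median log2 fold change was 0.12, and it was between -0.01 and 0.0 under the other scalings. In these bulk libraries, fewer cells of a type and less RNA per cell cannot be told apart.

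PPP1R3G, the subunit for which the genes were drawn up, was lower in every bird with fatty liver than in any control bird. It had 17.7, 8.75 and 22.5 FPKM in fatty liver replicates 1, 2 and 3, against 84.9, 80.8 and 231 FPKM in control replicates 1, 2 and 3. The lowest control bird thus lay far above the highest bird with fatty liver, and control replicate 3 stood apart from the other controls. The means were 16.3 ± 6.98 FPKM in fatty liver and 132 ± 85.7 FPKM in control (SD, n = 3 each), so that PPP1R3G was 8.11-fold lower in fatty liver, with a log2 fold change of -2.86 (SE 0.46). Without control replicate 3 the control mean was 82.8 FPKM, the difference was 5.08-fold and the log2 fold change was -2.37.

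PPP1R3B, the main targeting subunit of mammalian liver, was higher in fatty liver. Its FPKM were 29.9, 31.1 and 22.4 in fatty liver and 16.0, 15.1 and 13.9 in control. The lowest bird with fatty liver thus lay above the highest control bird, and the control birds lay close together. The log2 fold change was 0.84 (SE 0.18), which did not pass the threshold (limma adjusted p = 0.069).

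PPP1R3C, also called PTG, a subunit found in many mammalian tissues including liver and muscle, was higher as well. It had 12.0, 14.6 and 11 FPKM in fatty liver and 5.74, 1.29 and 0.561 FPKM in control. The birds with fatty liver were alike, whereas the control birds spread 10.2-fold, on 110, 21 and 10 fragments. The log2 fold change was 2.22 (SE 0.47) with a limma adjusted p of 0.073, on means of 12.5 ± 1.84 FPKM in fatty liver and 2.53 ± 2.8 FPKM in control (SD, n = 3 each). Without control replicate 1, the highest control bird, the ratio of the means was 13.6 in place of 4.96 and the limma adjusted p was 0.0082. With all 6 birds PPP1R3C passed with the replicate number as a block (limma adjusted p = 0.044), although these numbers do not pair the birds. Over the 15 alternative fits the adjusted p ran from 0.0082 to 0.21.

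PPP1R3D, a subunit found in many mammalian tissues, was the lowest of the 8 genes in fatty liver and close to the limit of 1 FPKM. It had 1.08, 0.884 and 0.752 FPKM in fatty liver and 1.06, 1.22 and 1.15 FPKM in control. The groups overlapped, and the log2 fold change of -0.17 had a 95% interval of -0.58 to 0.23 (limma adjusted p = 0.68).

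**Figure D1:**
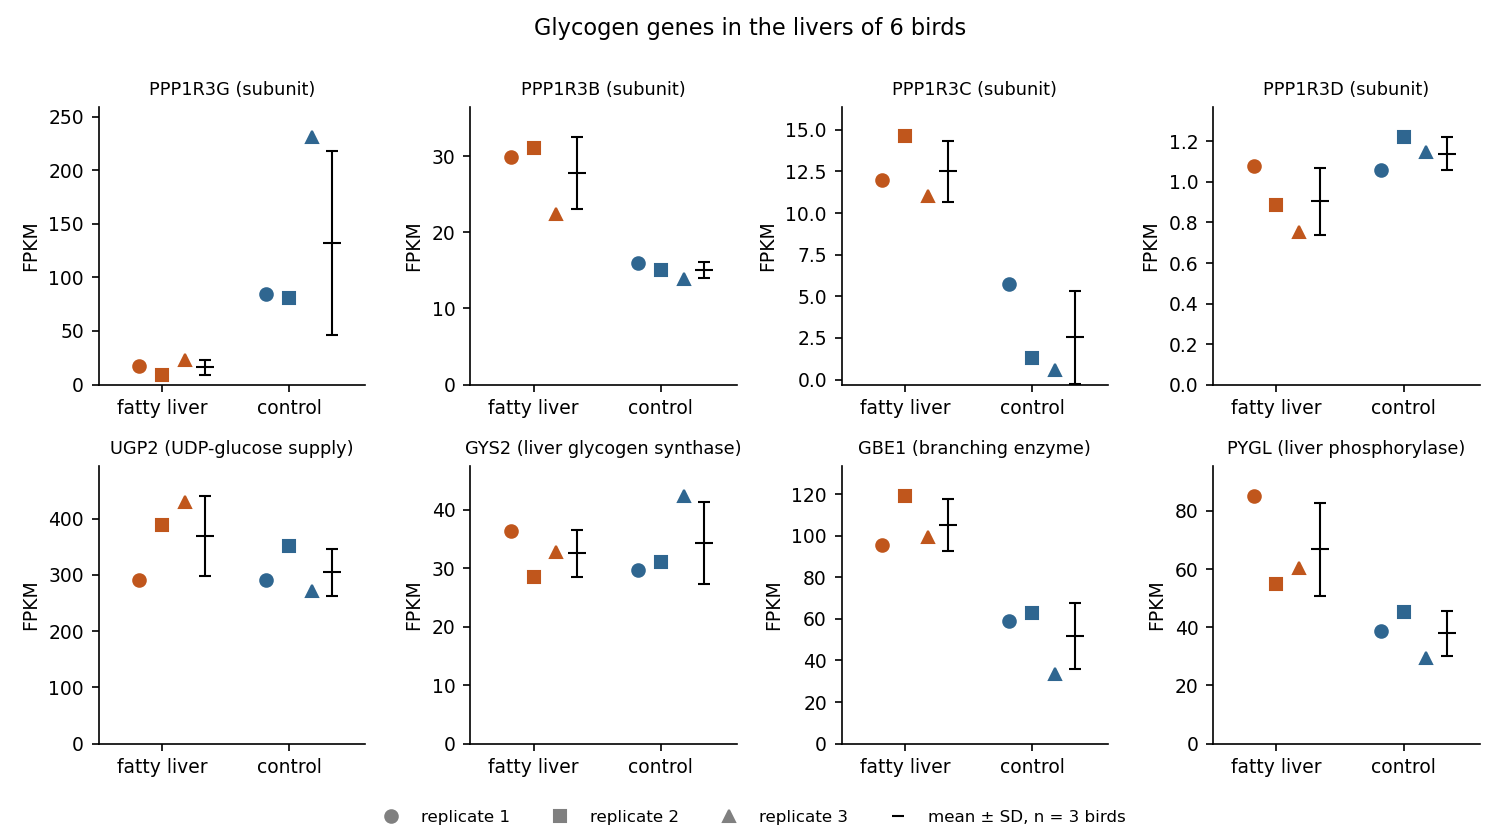
FPKM of the 8 glycogen genes in each liver (y axis, FPKM, linear), with the 3 birds with fatty liver left and the 3 control birds right in each panel, symbols for replicates and black bars for the mean ± SD. PPP1R3G lies between 8.75 and 22.5 FPKM in fatty liver and between 80.8 and 231 FPKM in control, whereas PPP1R3B, PPP1R3C, GBE1 and PYGL lie higher in every bird with fatty liver than in any control bird.

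The share of each subunit in the summed FPKM of the 4 subunits was computed per bird. PPP1R3G made up 29.1%, 15.8% and 39.7% of the sum in fatty liver, against 78.8%, 82.1% and 93.7% in control. Its share was 56.7 percentage points lower in fatty liver on the means (28.2 ± 12.0% in fatty liver and 84.9 ± 7.83% in control, SD, n = 3 each). PPP1R3B held the largest share in fatty liver replicates 1 and 2, with 49.3% and 56.2%, and in replicate 3 it was level with PPP1R3G at 39.5%. In control birds PPP1R3B held between 5.65% and 15.3%. PPP1R3C held 19.5% to 26.4% in fatty liver and 0.227% to 5.33% in control. These shares include the fall for which PPP1R3G was chosen, and a lower PPP1R3G raises the shares of the other subunits by arithmetic. PPP1R3D held 1.57% on average in fatty liver and 0.896% in control, although its mean FPKM was lower in fatty liver (0.905 against 1.14). The shares are therefore a description and test nothing.

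The sum itself, which also includes the fall of PPP1R3G, was 60.7, 55.4 and 56.7 FPKM in fatty liver, against 108, 98.4 and 247 FPKM in control. The summed FPKM of PPP1R3B and PPP1R3C was higher in every bird with fatty liver, with 41.9, 45.7 and 33.4 FPKM in fatty liver and 21.8, 16.3 and 14.5 FPKM in control. The subunits bind the catalytic subunits PPP1CA, PPP1CB and PPP1CC, whose summed FPKM overlapped between the groups, at 86.1 to 101 in fatty liver and 84.6 to 98.4 in control. PPP1R3A, the subunit of mammalian skeletal muscle, was listed at 0 in all 6 libraries.

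**Figure D2:**
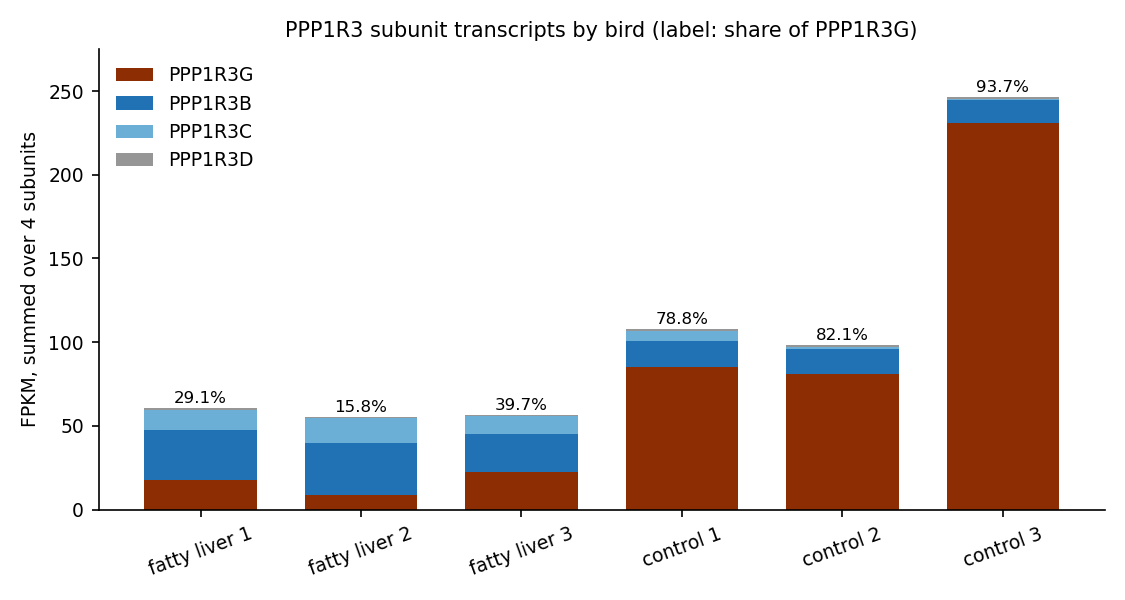
Summed FPKM of the 4 PPP1R3 subunits in each bird (stacked bars, y axis in FPKM from 0), with the share of PPP1R3G printed above each bar. The share is 15.8% to 39.7% in the birds with fatty liver and 78.8% to 93.7% in the control birds. It includes the fall for which PPP1R3G was chosen.

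On the log2(FPKM + 1) scale, PPP1R3G minus the mean of its 3 sister subunits was 0.99, -0.01 and 1.57 in fatty liver and 3.8, 4.24 and 5.98 in control. The difference between the groups was -3.82. Against PPP1R3C alone the difference was -5.08, against PPP1R3B -3.69 and against PPP1R3D -2.69. The ratio of PPP1R3G to PPP1R3C ran from 0.599 to 2.04 in fatty liver and was 14.8, 62.8 and 412 in control replicates 1, 2 and 3. In these control birds PPP1R3C had only 110, 21 and 10 fragments, so the high control ratios are imprecise. The differences and ratios include the fall for which PPP1R3G was chosen, and they describe how far apart the subunits moved without testing it.

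Among the 3 member enzymes of synthesis, the branching enzyme GBE1 had the largest log2 fold change. It had 95.3, 119 and 99.5 FPKM in fatty liver and 58.9, 62.6 and 33.7 FPKM in control. All birds with fatty liver were above all control birds, and control replicate 3 was the lowest bird. The log2 fold change was 1.04 (SE 0.25, limma adjusted p = 0.095), on means of 105 ± 12.5 FPKM in fatty liver and 51.7 ± 15.7 FPKM in control (SD, n = 3 each).

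GYS2 and UGP2 overlapped between the groups. GYS2 had 36.4, 28.4 and 32.7 FPKM in fatty liver and 29.6, 31.1 and 42.3 FPKM in control, a log2 fold change of -0.07 with a 95% interval of -0.51 to 0.37 (limma adjusted p = 0.9). Its direction turned in 2 of the 15 alternative fits, and control replicate 3 was the highest of the 6 birds. UGP2 was the most abundant member, with 291, 388 and 429 FPKM in fatty liver and 291, 352 and 272 FPKM in control. Its log2 fold change of 0.27 had a 95% interval of -0.19 to 0.72 (limma adjusted p = 0.55).

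PYGL, the enzyme of breakdown, was higher in fatty liver with 85.1, 54.9 and 60.4 FPKM, against 38.8, 45.2 and 29.6 FPKM in control. The groups did not overlap, although fatty liver replicate 2 and control replicate 2 were near each other. The log2 fold change was 0.8 (SE 0.23) and did not pass the threshold (limma adjusted p = 0.14). PYGB, the brain phosphorylase, was expressed at 2.93 ± 0.262 FPKM in fatty liver and 2.9 ± 0.915 FPKM in control (SD, n = 3 each), and its direction turned with the scaling. PYGL was thus the more abundant of the phosphorylases analysed.

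The ratio of GYS2 to PYGL was 0.427, 0.517 and 0.542 in fatty liver and 0.762, 0.689 and 1.43 in control. The groups did not overlap in this ratio. On the log2(FPKM + 1) scale GYS2 minus PYGL was -1.2, -0.93 and -0.86 in fatty liver and -0.38, -0.52 and 0.5 in control, a mean difference of -0.863. It was -0.55 without control replicate 3, which alone had more GYS2 than PYGL. The ratio of GBE1 to GYS2 was 2.62, 4.19 and 3.04 in fatty liver and 1.99, 2.01 and 0.798 in control.

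Among the members the limma threshold was met by 1 of 8, PPP1R3G itself, beside 1.14% of all tested genes. As PPP1R3G was chosen on this contrast, this count restates that choice and is no test of it. The count was 0 without any 1 of the 3 birds with fatty liver, without control replicate 2, without the filter on low values and with robust eBayes, and without control replicate 1 it was 1, PPP1R3C in place of PPP1R3G. None of the 4 enzymes passed, although 2 of them had an unadjusted p under 0.05, as had 16.3% of all tested genes, and limma's voom on the fragments also called 0 of the 4. The groups did not overlap in 5 members, 4 of them higher (PPP1R3B, PPP1R3C, GBE1 and PYGL) and 1 lower in fatty liver, where 23.0% of all tested genes did not overlap, 18.3% being higher and 4.78% lower in the birds with fatty liver. The members were chosen with this contrast known, so nothing is read from these counts. The 8 members had a median log2 fold change of 0.54, beside 0.12 over all genes.

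The order of the members by median FPKM differed between the groups. In fatty liver it was UGP2, GBE1, PYGL, GYS2, PPP1R3B, PPP1R3G, PPP1R3C and PPP1R3D. The ranges of UGP2, GBE1, PYGL and GYS2 were separate from each other, whereas those of GYS2 and PPP1R3B, of PPP1R3B and PPP1R3G and of PPP1R3G and PPP1R3C overlapped. In control PPP1R3G stood second, below UGP2 and above GBE1, with no overlap with either neighbour, and the order went on with GBE1, PYGL, GYS2, PPP1R3B, PPP1R3C and PPP1R3D. There the ranges of GBE1 and PYGL, of PYGL and GYS2 and of PPP1R3C and PPP1R3D overlapped. Averaged over the 6 birds, PPP1R3G exceeded 92.3% of the tested genes and PPP1R3D exceeded 0.413%.

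The spread between birds of the same group was not itself the rule that chose PPP1R3G, but it comes from the same FPKM as the fold change that was. Control replicate 3 enters both. Without it the coefficient of variation of PPP1R3G in control was 3.45% and the log2 fold change was -2.37. The ranks of its spread are therefore a description and not independent of the choice. With all birds, the coefficient of variation of PPP1R3G was 42.8% in fatty liver and 64.8% in control, higher than that of 90.2% of the tested genes in fatty liver and of 96.1% in control. PPP1R3C varied by 14.7% in fatty liver and by 111% in control, higher than 45.4% and 99.3% of the tested genes. PPP1R3B was steady in control, at 6.97%, as was PPP1R3D at 7.17%, and GYS2 at 20.3% equalled the median of all tested genes in control.

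Control replicate 3 had the highest FPKM of PPP1R3G and GYS2 of all 6 birds and the lowest of PPP1R3B, PPP1R3C, GBE1 and PYGL among the controls. On the log2(FPKM + 1) scale PPP1R3G was 1.47 above the mean of the other control birds, more than 99.3% of the tested genes, and PPP1R3C was -1.33 against that mean, with 0.928% of the tested genes lower. The same bird stood apart in genes that respond to fasting. PCK1, which catalyses an early step of gluconeogenesis, had 118, 111 and 82.7 FPKM in fatty liver and 11.7, 2.9 and 178 FPKM in control replicates 1, 2 and 3 (log2 fold change 2.33, limma adjusted p = 0.37). CPT1A, which admits fatty acids to the mitochondria, had 59.5, 44.2 and 40 FPKM in fatty liver and 45.6, 61.9 and 183 FPKM in control. IGFBP1 and PDK4 of the same list did not set this bird apart, at 0.2 and 0.04 above the mean of the other controls on the log2 scale. The feeding state at sampling is not given in the sources used here, and its part in the values of PPP1R3G was not tested.

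**Figure D3:**
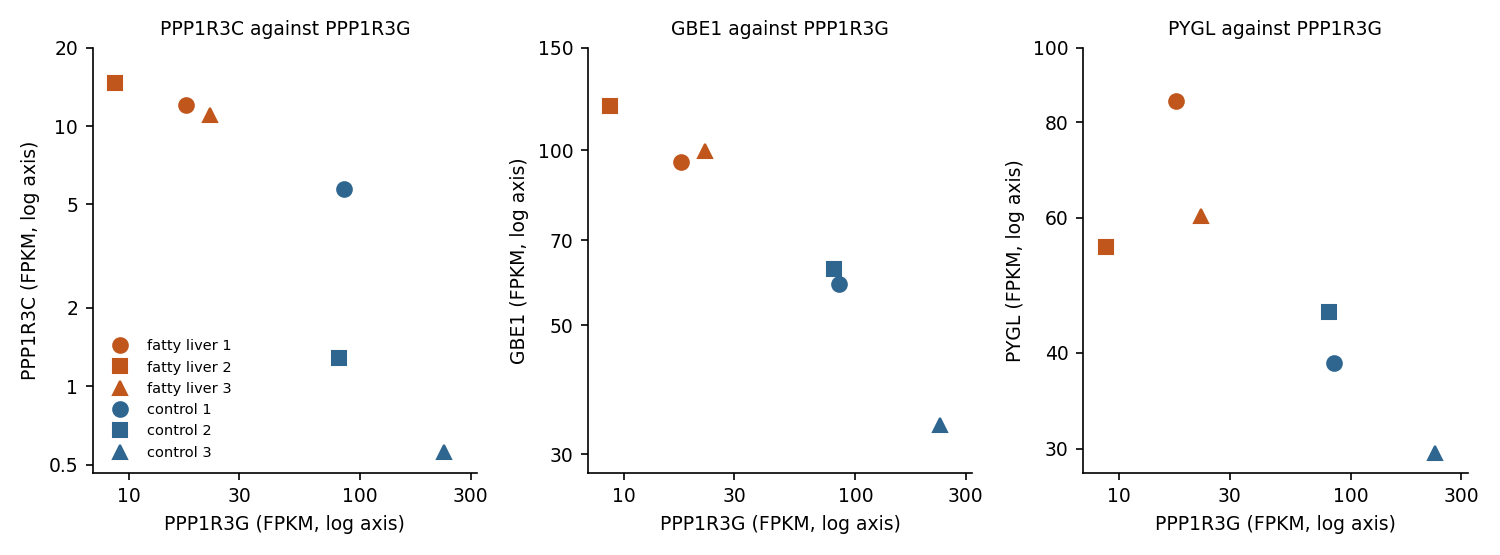
FPKM of PPP1R3C, GBE1 and PYGL (y axes) against PPP1R3G (x axes) in the 6 birds, on log axes, with symbols for replicates. Control replicate 3 has the highest PPP1R3G at 231 FPKM and the lowest PPP1R3C (0.561 FPKM), GBE1 (33.7 FPKM) and PYGL (29.6 FPKM).

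Of 12 genes listed as fasting-response genes, 11 were matched and tested. None passed the threshold in limma or in voom, although 7 had an unadjusted p under 0.05, beside 16.3% of all tested genes. The list did not move in 1 direction. The groups did not overlap in 5 genes with lower FPKM in fatty liver, and IGFBP1, a secreted binding protein repressed by insulin, had 92.7, 135 and 85.6 FPKM in fatty liver and 173, 311 and 266 FPKM in control (log2 fold change -1.24, limma adjusted p = 0.075). PDK4, an inhibitor of pyruvate oxidation, averaged 126 ± 43.1 FPKM in fatty liver and 273 ± 9.46 FPKM in control (SD, n = 3 each), with a limma adjusted p of 0.068. TAT, the most abundant gene of the list, averaged 1024 ± 113 FPKM in fatty liver and 1383 ± 78.7 FPKM in control (SD, n = 3 each; limma adjusted p = 0.22). In contrast, ANGPTL4, an inhibitor of lipoprotein lipase, had 40.9, 10.7 and 21.4 FPKM in fatty liver and 1.14, 0.609 and 11.8 FPKM in control, with overlap through control replicate 3 (log2 fold change 2.65, limma adjusted p = 0.15). Without that bird its log2 fold change was 3.58 (limma adjusted p = 0.033), and that of PCK1 was 3.88 (limma adjusted p = 0.022). Each of these genes passed in only 1 of the 15 alternative fits, the one without the control bird nearest to fatty liver. In the others the limma adjusted p reached 0.32 for ANGPTL4 and 0.58 for PCK1. The median of the list was -0.44.

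The rest of the pathway was described with lists written by function, with earlier results of these birds known. The counts of these lists are therefore a description, and nothing is read from their distance to the share over all genes. Counted together with the 12 fasting-response genes above, 70 genes were listed, 61 matched and 48 tested. Of the 48, 3 (6.25%) passed the limma threshold as higher in fatty liver and 0 as lower. Over all tested genes, 0.845% passed as higher and 0.294% as lower. Without the fasting-response genes, 58 were listed, 50 matched and 37 tested, and the same 3 (8.11%) passed as higher. The 3 genes were PGM1, SLC2A2 and PRKACA, which voom also called. Over all 48 genes the count was 2 without fatty liver replicate 1, 0 without fatty liver replicate 2 or 3 and 1 without control replicate 1 or 2. It was 4 without control replicate 3, with the fasting-response genes PCK1 and ANGPTL4 among them. The 48 genes had a median log2 fold change of 0.08.

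PGM1, the phosphoglucomutase that links glucose 6-phosphate to glycogen, had 224, 186 and 193 FPKM in fatty liver, against 74.8, 57.0 and 45.0 FPKM in control. The groups were far apart, with a log2 fold change of 1.78 (SE 0.21, limma adjusted p = 0.014). The call was lost without fatty liver replicate 2 or 3 or without control replicate 2, with limma adjusted p of 0.056, 0.055 and 0.06. PGM2 was also higher in every bird with fatty liver, at 52.4 ± 2.2 FPKM against 31.8 ± 0.67 FPKM in control (SD, n = 3 each), without passing (limma adjusted p = 0.064).

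SLC2A2, the glucose transporter GLUT2 through which glucose enters and leaves hepatocytes, had 145, 70.9 and 73.0 FPKM in fatty liver and 22.9, 20.9 and 16.7 FPKM in control. Fatty liver replicate 1 was the highest bird, and the log2 fold change was 2.13 (SE 0.29, limma adjusted p = 0.02). The call was lost without fatty liver replicate 2 or 3, without control replicate 1 or 2 and without the filter on low values, with limma adjusted p between 0.052 and 0.077. SLC37A4, which carries glucose 6-phosphate into the endoplasmic reticulum, had 115 ± 15.7 FPKM in fatty liver and 109 ± 10.7 FPKM in control (SD, n = 3 each), and its direction turned with the scaling.

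PRKACA, a catalytic subunit of protein kinase A, which activates phosphorylase kinase, had 108, 87.3 and 77.4 FPKM in fatty liver and 28.5, 44.1 and 32.9 FPKM in control. The log2 fold change was 1.35 (SE 0.21, limma adjusted p = 0.034). Among the libraries, control replicate 2 alone could be left out without loss of the call, and without each of the other 5 the limma adjusted p was between 0.061 and 0.11. The call was also lost without the filter on low values (limma adjusted p = 0.079). Its paralog PRKACB had a log2 fold change of -0.03.

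Phosphorylase kinase itself had 4 tested subunits, and none passed in limma or voom, with 2 under an unadjusted p of 0.05, beside 16.3% of all tested genes. PHKA2, the liver form of the alpha subunit in mammals, averaged 18.5 ± 1.54 FPKM in fatty liver and 27.7 ± 2.47 FPKM in control (SD, n = 3 each), with no overlap (limma adjusted p = 0.13). PHKG1 had 34.4 ± 1.58 FPKM in fatty liver and 25.9 ± 3.57 FPKM in control (SD, n = 3 each; limma adjusted p = 0.26).

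Of the 6 tested catalytic subunits and other regulators of protein phosphatase 1, none passed in limma or voom. None had an unadjusted p under 0.05, beside 16.3% of all tested genes. PPP1CA was the most abundant, at 54.3 ± 6.12 FPKM in fatty liver and 51.6 ± 7.6 FPKM in control (SD, n = 3 each), and the direction of its difference turned with the scaling. PPP1R1B, an inhibitor of the phosphatase, had the largest log2 fold change of these 6, at 0.34 (SE 0.25, limma adjusted p = 0.54). Of the glycogen-associated proteins, the glycogen-binding STBD1 averaged 166 ± 23.4 FPKM in fatty liver and 172 ± 44.2 FPKM in control (SD, n = 3 each), with a log2 fold change of -0.02 whose direction turned in 4 of the alternative fits. NHLRC1, the ubiquitin ligase malin, averaged 1.37 ± 0.475 FPKM in fatty liver and 0.781 ± 0.0536 FPKM in control (SD, n = 3 each; limma adjusted p = 0.39).

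Among the 4 tested hormone receptors, none passed in limma or voom and 1, ADRA1B, had an unadjusted p under 0.05, beside 16.3% of all tested genes. INSR, the insulin receptor, had 16.4, 9.37 and 12.9 FPKM in fatty liver and 16.5, 17.8 and 17.9 FPKM in control, with no overlap but with fatty liver replicate 1 next to control replicate 1 (log2 fold change -0.44, limma adjusted p = 0.35). GCGR, the glucagon receptor, averaged 130 ± 28.1 FPKM in fatty liver and 101 ± 28.0 FPKM in control (SD, n = 3 each), and the adrenergic receptor ADRA1B averaged 25.4 ± 5.48 FPKM in fatty liver and 16.0 ± 4.86 FPKM in control (SD, n = 3 each; limma adjusted p = 0.26).

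**Figure D4:**
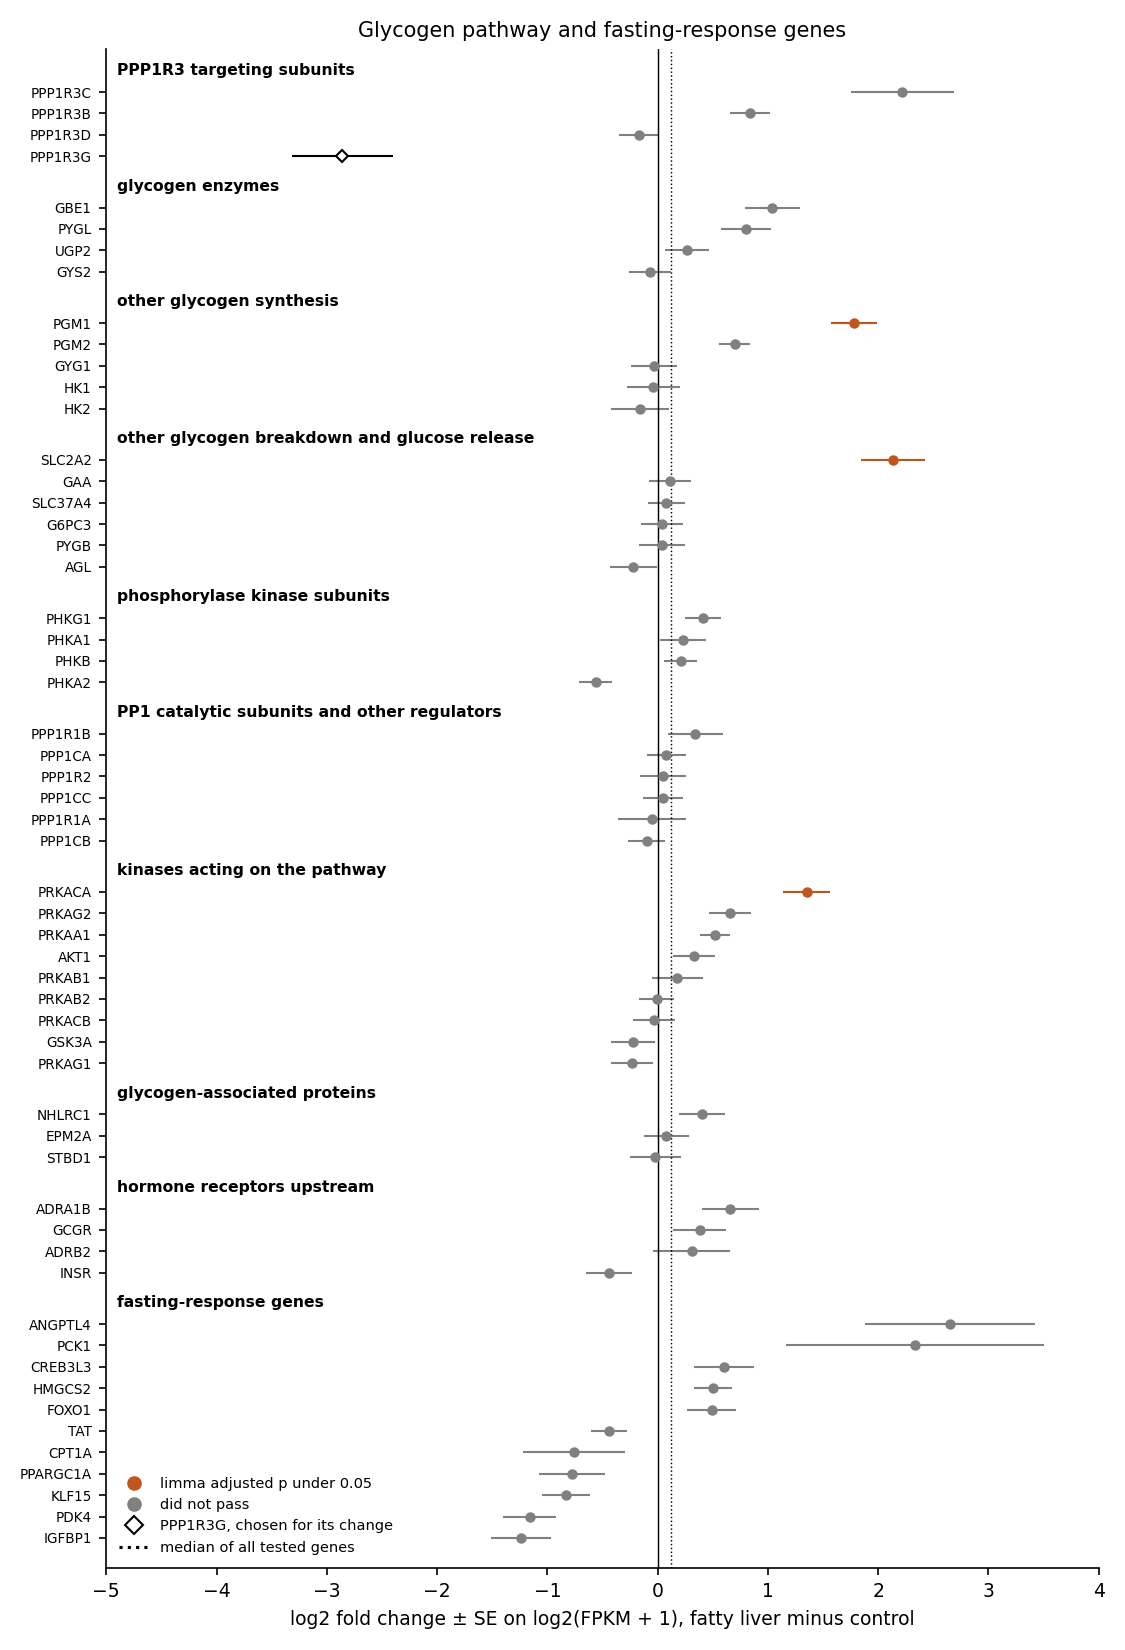
Log2 fold changes of the tested glycogen pathway and fasting-response genes (x axis, log2(FPKM + 1), fatty liver minus control, points with SE), grouped by role, with genes of limma adjusted p under 0.05 in orange, PPP1R3G, which was chosen for its change, as an open diamond and the median of all tested genes dotted at 0.12. PPP1R3G lies at -2.86, and PGM1 (1.78), SLC2A2 (2.13) and PRKACA (1.35) lie to the right.

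Likeness to PPP1R3G was measured by Pearson's r over the 6 libraries on the log2(FPKM + 1) scale. The 5 tested genes with the highest r were GFRA3 (0.9968), INSIG2 (0.9909), FOXP4 (0.9881), EIF4B (0.988) and UBR2 (0.9843). GFRA3, a receptor subunit for a neurotrophic factor, had 35.3, 25.7 and 41.4 FPKM in fatty liver and 69.2, 76.8 and 124 FPKM in control. INSIG2, which retains the SREBP complex in the endoplasmic reticulum, had 95, 83.5 and 91.7 FPKM in fatty liver and 118, 117 and 133 FPKM in control, so that its difference was much smaller than that of PPP1R3G. FOXP4, a forkhead transcription factor, was the only one of the 5 called in limma, with 4.24, 3.48 and 5.04 FPKM in fatty liver and 11.3, 10.4 and 14.7 FPKM in control (log2 fold change -1.32), and that call was lost in 6 of the 15 alternative fits. The 6 points share their libraries and fall into 2 separate groups, so these values rank the genes and test nothing.

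The nearest tested gene on each side of each member was taken from the order of genes in the RefSeq table of the assembly GRCg7b. PPP1R3G lies between LYRM4 (22.2 FPKM in fatty liver and 18.9 FPKM in control on average) and RPP40 (3.82 FPKM in fatty liver and 4.05 FPKM in control), whose log2 fold changes were 0.22 and -0.06. Of the 16 neighbours, 0 passed the threshold in limma and 0 in voom, and 3 had an unadjusted p under 0.05, beside 16.3% of all tested genes.

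Markers of the cell types of liver were examined beside these results. Of 7 hepatocyte markers 6 were matched, with summed FPKM of 117654 to 127638 in fatty liver and 112763 to 141847 in control. ALB, albumin, had 67938, 74473 and 62319 FPKM in fatty liver and 107416, 90339 and 92788 FPKM in control (log2 fold change -0.5, limma adjusted p = 0.15). APOA1, the main protein of high-density lipoprotein, went the other way, with 41734, 40420 and 42859 FPKM in fatty liver and 21147, 11258 and 28823 FPKM in control (log2 fold change 1.13, limma adjusted p = 0.13). The other 4 overlapped between the groups, with log2 fold changes of 1.07 for HNF4A, 0.36 for TTR, -0.16 for TF and -0.26 for FGB. Summed markers of macrophages (178 to 876 FPKM in fatty liver and 253 to 531 FPKM in control), of stellate cells and fibroblasts (144 to 171 FPKM in fatty liver and 102 to 187 FPKM in control), of T cells (15.8 to 39.7 FPKM in fatty liver and 31.2 to 57.2 FPKM in control), of erythrocytes (931 to 1895 FPKM in fatty liver and 1214 to 1324 FPKM in control), of endothelium (34.5 to 41.0 FPKM in fatty liver and 24.6 to 38.9 FPKM in control) and of bile ducts (39.8 to 68.5 FPKM in fatty liver and 44.4 to 97.4 FPKM in control) overlapped between the groups. SOX9, on the bile duct list, had 6.28, 7.16 and 11.9 FPKM in fatty liver and 1.76, 1.72 and 3.03 FPKM in control (log2 fold change 1.55, limma adjusted p = 0.038) and passed in 6 of the 15 alternative fits, voom not among them. The other matched bile duct markers, EPCAM and KRT7, overlapped between the groups, with log2 fold changes of -0.59 and -0.22. The 3 matched adipocyte markers summed to 36.7 to 103 FPKM in fatty liver and 6.93 to 10.5 FPKM in control, and PLIN1, a protein of the lipid droplet surface, rose to 35.5 ± 3.32 FPKM in fatty liver, against 5.35 ± 2.13 FPKM in control (SD, n = 3 each; limma adjusted p = 0.01). FABP4, a fatty acid binding protein, had 4.22, 65.1 and 39.2 FPKM in fatty liver and 3.24, 3.57 and 0.873 FPKM in control, with no overlap (log2 fold change 2.86, limma adjusted p = 0.16). ADIPOQ, the defining secreted protein of adipocytes, was at 1.06 ± 0.233 FPKM in fatty liver and 0.87 ± 0.147 FPKM in control (SD, n = 3 each). Skeletal muscle markers summed to 3.04 to 3.5 FPKM in fatty liver and 1.8 to 8.14 FPKM in control, with MB listed at 0 in all libraries. The part of these markers in the values of the glycogen genes was not tested.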

How the data were processed

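Liver mRNA of 6 F1 males was sequenced with 1 library per bird. Sickle and SeqPrep were used for read filtering and Gallus_gallus_5.0 as the genome by the authors, who deposited FPKM per gene and library. The aligner, the counting tool and the annotation are not given in the sources used here. Symbols came by NCBI Gene ID from a RefSeq table of the assembly GRCg7b, which matched 16332 of 20498 IDs. It is another assembly, so no coordinates are given, and list members without their symbol in it (GYS1, PYGM and others) were not analysed here. No sequences were used here.

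The 10886 genes averaging 1 FPKM or more were kept and log2(FPKM + 1) was fitted with limma 3.58.1 in R 4.3.3, with eBayes and a mean-variance trend and Benjamini-Hochberg adjustment. Whole fragments, library totals and exon lengths were worked out from the FPKM. A length was accepted only where every value came near a whole number of fragments. That 100% of the values were given back within a relative tolerance of 1e-06 follows from this rule. In simulated FPKM, the 6 library totals and 99.03% of 3924 genes were recovered exactly. The limma fit was also tested on simulated data. With a simulated log2 change of 1, 44 of 82 changed genes were called with the right sign. With a change of 2 it was 65 of 66 and with 3 it was 51 of 52, and 5 unchanged genes were called. The simulated noise was normal, with the moderated SD of each gene, so the most variable genes had less noise than in the data. In the data, PPP1R3C (log2 fold change 2.22), PCK1 (2.33), ANGPTL4 (2.65) and FABP4 (2.86) did not pass, whereas SLC2A2 (2.13) and PLIN1 (2.58) did. Changes near 1 were often missed in the simulation, and larger ones can be missed in variable genes. A gene that did not pass is therefore not shown to be unchanged. Depth was between 8860634 and 10403637 fragments.

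The members and lists were chosen with earlier results of these data known. Genes named are the 8 members, in each pathway list the genes called, the most abundant and that with the largest change, PYGB, PCK1, IGFBP1 and ALB, and the 5 genes most like PPP1R3G. PGM2, PRKACB, CPT1A, PDK4, PPP1R3A, INSR, LYRM4, RPP40 and the markers other than ALB were chosen after their values were seen. The p-values set the difference between the groups against the spread between 3 birds per group, which eBayes moderated over all tested genes. They take the birds as independent, which is not known, as shared sires are not given. Alternative fits (15) used a pseudocount of 0.1, all genes without a filter, 3 other scalings, limma with no trend or with robust eBayes, a replicate block, voom on the fragments with trimmed-mean scaling, or 1 library fewer.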

Additional observations from a re-analysis of the deposited data

How the results depend on the processing

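The number of genes called over all tested genes was 124, 74.2% of them higher in fatty liver. It was 30 without the filter on low values and 79 with libraries scaled to the same median, where 54.4% were higher. The share of higher calls was 52.9% with quantile normalization, 52.4% after rescaling without the 50 most abundant genes and 48.4% with voom, with the median over all genes moving to between -0.01 and 0.0 on the log2 scale. With a library left out, 22 to 119 genes were called, the fewest without fatty liver replicates 2 (24) and 3 (22) and control replicate 2 (36), and 77 without control replicate 1. The number of members called, 1, was 0 without the filter and with robust eBayes, and 0 to 1 with a library left out (PPP1R3C without control replicate 1). Pathway genes called, counted with the fasting-response genes, were 3, and were 1 without the filter and 0 to 4 with a library left out. The cause was not tested.

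The difference between PPP1R3G and its sisters, -3.82, was -4.26 to -3.17 with a library left out, that between GYS2 and PYGL -1.06 to -0.55, and that in the share of PPP1R3G -62.4 to -50.5 percentage points. Same-numbered birds are different animals, and their deviations from the group means had correlations of 0.02, 0.04 and 0.05, so the numbers do not pair the birds. With the replicate number as a block, 140 of the 10886 tested genes, 2 members (PPP1R3G and PPP1R3C) and 4 pathway genes were called. As PPP1R3G was chosen on this contrast, its call in any of the fits restates that choice and is no test of it. The share of PPP1R3G was not computed with voom, whose values are not per length.

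Of 465 refitted values of 31 named genes, 407 kept their direction and side of the threshold, 27 lost a call, 7 gained one and 24 did not keep their sign, in 6 genes. For ALB this was 1 value, at 0.0 after quantile normalization, which is not a turn to the other direction. Of the 8 members, GYS2 changed sign, with -0.16 to 0.09 when a library was left out and above 0 without fatty liver replicate 2 (0.02) or control replicate 3 (0.09). STBD1 was -0.25 to 0.12 with a library left out, and above 0 without fatty liver replicate 2 (0.04), fatty liver replicate 3 (0.03), control replicate 1 (0.07) or control replicate 3 (0.12). Under median scaling, quantile normalization, rescaling and voom, in this order, PPP1CA was -0.07, -0.09, -0.09 and -0.07, PYGB -0.07, -0.09, -0.08 and -0.09, and SLC37A4 -0.07, -0.1, -0.09 and -0.07. With a library left out, PPP1CA was -0.04 to 0.16 (-0.01 without fatty liver replicate 3), PYGB -0.17 to 0.16 (-0.01 without fatty liver replicate 3) and SLC37A4 -0.03 to 0.16. ALB was at 0.0 after quantile normalization, against -0.5 before. Depth limits PPP1R3C in control and PPP1R3D, with as few as 10 and 40 fragments in a library.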
